A study of Mus musculus with 3 samples.

Results

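Plasma cell-marker-rich barcodes were examined in droplet libraries of nuclei from dry eye corneas of mice lacking Aire. They were selected on measured RNA, as barcodes with at least 500 genes, at most 5% mitochondrial UMIs and UMIs of at least 3 of 7 genes (Mzb1, Pou2af1, Irf4, Tnfrsf17, Derl3, Prdm1 and Eaf2), whose summed share of the barcode's UMIs was at least 8 times their share in the whole library. A UMI is a molecular tag counted once per captured RNA molecule. Immunoglobulin genes and Jchain took no part in the choice. The rule found 165 of the 218924 barcodes that passed the gene and mitochondrial limits in the libraries labelled KO and KO_PBS, of 317975 barcodes in the series. KO gave 152 of them and KO_PBS gave 13. In KO they carried more immunoglobulin RNA than the other barcodes and were higher in some secretory pathway genes, several of which were not called when Mzb1 was taken out of the rule, while in KO_PBS the plasma cell markers outside the rule were read too thinly to be called.

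Plasma cells are the antibody-secreting end stage of the B cell lineage. They shut down much of the B cell program under Prdm1 (Blimp-1) and Irf4, expand the endoplasmic reticulum under Xbp1, and secrete immunoglobulin of the class fixed by the heavy chain constant gene they use. In lacrimal and other mucosal tissues, plasma cells are a known source of secreted antibody, and mice without Aire, which lets the thymus display tissue antigens to developing T cells, get autoimmune dry eye.

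The KO library came from untreated mice labelled KO, and the KO_PBS library from KO mice given PBS (phosphate-buffered saline) for 14 days. A wild-type library (WT) was untreated, and each library pooled corneas of 5 mice at 7 weeks of age. The knockout is of Aire per the series text, which gives another age and treatment day. Lacripep treatment, also named there, was not analysed here. Each group had a single library, so no difference could be set against replicates and no test was made. Intervals below are 95% and cover counting error only. Those of shares are Clopper-Pearson and those of summed UMIs exact Poisson. Group and preparation cannot be told apart.

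The libraries held 178988562 to 352627863 UMIs, and the median passing barcode had 2980 UMIs in KO, 1446 in KO_PBS and 2262 in WT. Aire was near 0 throughout, with 68 UMIs in KO_PBS, 27 in KO and 15 in WT, and therefore checked no label. Between 2833 and 3379 barcode sequences were shared by each pair of libraries. Of the KO members, 2 had a sequence also found in WT and 2 one also found in KO_PBS. The corneal epithelial keratin gene Krt12 was found in 100% of the KO members and in 100% of the other passing KO barcodes. Doublets were not removed.

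The 152 KO members made up 0.142% of passing barcodes (0.120 to 0.166%), and the 13 KO_PBS barcodes 0.0116% (0.00619 to 0.0199%). In WT, which the rule does not name, it found 3 barcodes. The threshold differed between the libraries because it scales with each library's own share of the 7 genes, which was 0.0240% in KO and 0.00687% in KO_PBS. At the median depth it asked for 5.71 UMIs in KO and 0.794 in KO_PBS. With the KO threshold 1 barcode of KO_PBS met the rule, and with the KO_PBS threshold 1972 of KO did. After each passing barcode of at least 1000 UMIs was thinned to 1000, 95 of 106812 met the rule in KO (0.0889%) and 0 of 98080 in KO_PBS (upper bound 0.00376%). Thinning left out 213 barcodes in KO and 13819 in KO_PBS as too shallow.

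The KO members were the upper end of a graded range. Of 2274 passing KO barcodes with 3 or more of the 7 genes, 1046 had at least 4 times the library share, 369 at least 6 times, 231 at least 7 times and 152 at least 8 times. The nearest KO barcodes outside the threshold were at 7.93 to 7.99 times, and the nearest members inside it included 4 at 8.02 to 8.08 times. In KO_PBS the nearest were at 7.47 and 8.07 times. A KO member had 3 to 36 UMIs of the 7 genes, with a median of 7.5, among 1174 to 11423 UMIs in all, with a median of 3128.5. In 105 members 3 of the genes were found, in 32 members 4, in 11 members 5 and in 4 members 6.

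Mzb1, a resident of the endoplasmic reticulum that aids antibody assembly and secretion, supplied most of the UMIs that chose the KO members. It had 891 UMIs in 149 members, with a median of 5 and a maximum of 32 per barcode. It was also found in 29.2% of the other passing barcodes, so 1 Mzb1 UMI alone set no barcode apart. Its exons overlap Spata24 on the same strand in GENCODE M21, and reads there can be uncertain. Eaf2, a transcription elongation partner, had 120 UMIs in 91 members. Pou2af1, the B-lineage coactivator of octamer-binding factors, had 96 in 77. Derl3, a channel component for disposal of misfolded proteins, had 92 in 71. The members were chosen by these values, which are given as a description. Irf4 was found in 52 members, Prdm1 in 66 and Tnfrsf17 (BCMA, a receptor for plasma cell survival ligands) in 16. Irf4 and Prdm1, which together define the plasma cell state, were thus each unseen in many members, with at most 4 and 3 UMIs per barcode.

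Outside the rule, nearly all antibody genes with enough UMIs were higher in KO members. UMIs of members and of all other passing KO barcodes were summed and scaled to CPM (UMIs of the gene per 1000000 UMIs). A gene was called higher or lower when it had at least 20 UMIs observed and expected together, a ratio of at least 2 and separate Poisson intervals. Calls of this kind describe size and test nothing. Among 6790 genes with enough UMIs, the members were higher in 96 (1.41%) and lower in 141 (2.08%), and the median log2 ratio was -0.22. Centred on that median, 145 were higher and 45 lower, and scaled without immunoglobulin genes and Jchain, 81 were higher and 65 lower. Of 42 immunoglobulin genes with enough UMIs, 41 were higher. That count is partly set by the minimum of UMIs, which rare variable genes could reach only with a high count in members. Igkv17-121, for example, had 36 UMIs where 3.87 were expected. Without immunoglobulin genes and Jchain, 54 of 6747 genes were higher (0.8%).

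Immunoglobulin genes made up 0.681% to 37.3% of a KO member's UMIs, with a median of 7.64%. The other passing barcodes had a median of 1.37% and a 95th percentile of 6.35%, which 88 of the 152 members exceeded. The groups overlapped, since the lowest members lay below the median of the others. Summed over members the share was 10.7%, against 2.20% over the other barcodes.

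Igkc, the constant region of kappa light chains, was at 61795 CPM in KO members (61141 to 62455) and at 12282 CPM in the others, a ratio of 5.03. Every KO member had it, from 6 to 1647 UMIs with a median of 136. So did 99.98% of the other passing KO barcodes, and its presence alone set no barcode apart. Lambda constant genes were far less abundant, with 139 UMIs of Iglc1 (ratio 2.45), 82 of Iglc2 (3.22) and 58 of Iglc3 (5.27). Kappa was thus the main light chain of the members, as it was of the library. A single barcode carried 60 of the Iglc1 UMIs. Without the members above the median immunoglobulin share, a split that itself lowers immunoglobulin ratios, the Iglc1 log2 ratio was -0.058.

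Ighg1, the constant gene of IgG1, was the most abundant heavy chain gene, at 31706 CPM in KO members (31238 to 32179.5) against 6436 in the others, a ratio of 4.93. A KO member had 0 to 921 UMIs of it, with a median of 64.5, and 80 of the 152 lay above the 95th percentile of the other barcodes. The other IgG genes were also higher, Ighg2b 4.54-fold, Ighg2c 3.42-fold and Ighg3 2.82-fold. Ighm, used by IgM, was 4.95-fold higher with 351 UMIs in 59 members. Its median was 0 UMIs per member and its maximum 58, and 22 members lay above the others' 95th percentile. Igha, used by the IgA of mucosal surfaces, was 2.47-fold higher with 465 UMIs in 79 members. Ighd, used by naive B cells, had 4 UMIs over the members where 4.04 were expected, and Ighe had 0. Genes of these families are near-identical in places, which makes the value of any single member of them uncertain.

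The heavy chain mix of the members was close to that of the library as a whole. Ighg1 made up 81.0% of heavy constant UMIs in KO members and 77.1% in the others, and Ighg2b made up 10.7% and 11.1%. Igha made up 2.15% and 4.09% and Ighm 1.62% and 1.54%. To ask which gene a single member carried beyond that mix, the UMIs expected from the other barcodes were subtracted. A gene was called leading where its excess was at least 10 UMIs and at least 50% of the excess in its family. A heavy constant gene led in 119 of 152 members (78.3%). Ighg1 led in 99 of them, Ighg2b in 9, Ighg2c in 5, Ighm in 5 and Igha in 1.

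In the members with a leading heavy gene, it held a median of 94.6% of the excess. A second heavy gene was nevertheless at an excess of 10 or more in 48 members. Ighg1 and Ighg2b were both in excess in 19 members, Ighg1 and Ighg2c in 19 and Igha and Ighg1 in 13. Since a plasma cell uses 1 heavy chain class, such barcodes held RNA of more than 1 class. Igkc led among light constant genes in 129 members.

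**Figure D1:**
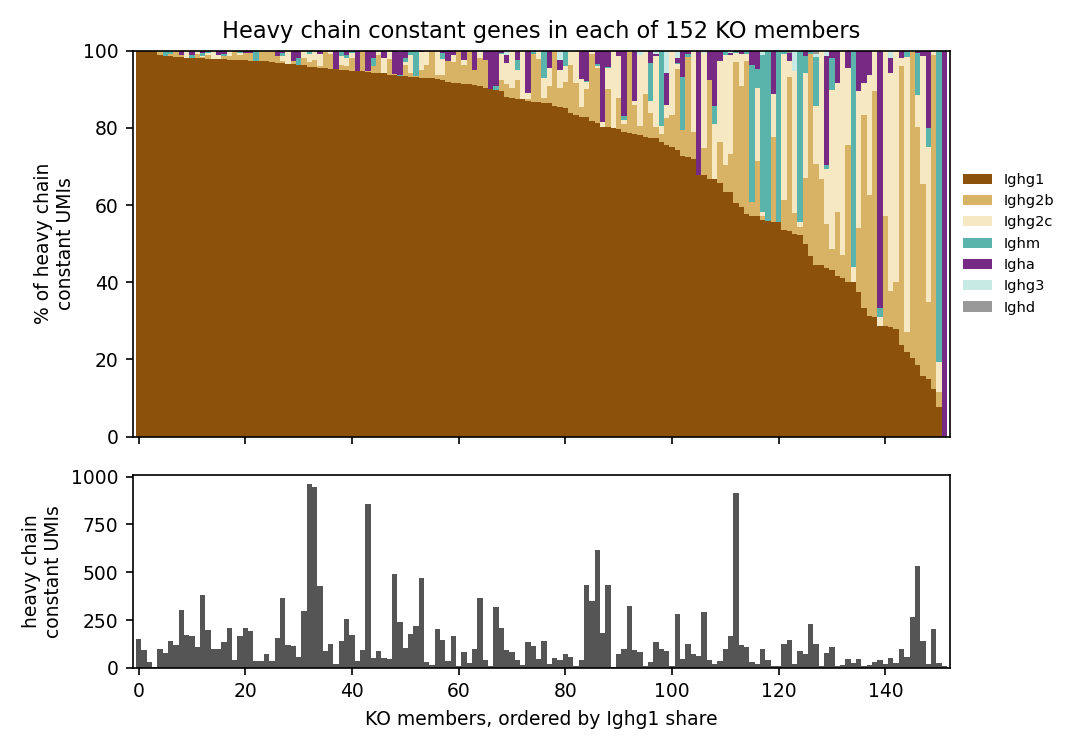
Heavy chain constant genes in each of the 152 KO members, ordered by Ighg1 share. The upper bars give each gene as a percentage of the barcode's heavy constant UMIs and the lower bars their number of UMIs. Most members are dominated by Ighg1, and at the right end stand members with mostly Ighg2b, Ighg2c, Ighm or Igha, several of them with few UMIs.

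Variable genes were read too thinly to follow single antibodies. Over all KO members there were 385 UMIs of heavy variable genes, a median of 1 per member, and none led in any member. Light variable genes had 2623 UMIs, a median of 10, and 1 of them led in 25 of 152 members. Igkv5-45 led in 7, Igkv12-44 in 5, Igkv16-104 in 4, Igkv12-46 in 3 and Iglv1 in 2, with Igkv1-135, Igkv17-121, Igkv3-2 and Igkv8-30 in 1 each. In 16 more members a light variable gene passed the excess but shared it with others. The 25 members thus used 9 different leading genes.

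A plasma cell clone uses 1 kappa variable gene, so the top gene of a member was compared with that of other barcodes at an equal number of Igkv UMIs. Total depth was not matched. After thinning to 10 Igkv UMIs, the top Igkv gene held 6 or more of the 10 in 32 of 62 KO members (51.6%, 38.6 to 64.5%). The same held for 3699 of 5790 other passing barcodes (63.9%, 62.6 to 65.1%). The members did not exceed the others in this measure. Only barcodes with at least 10 Igkv UMIs entered, so these others were the part of the library rich in Igkv RNA. Before thinning, the median of Igkv UMIs in the barcodes used was 21 in members and 14 in the others. Too few Igkv UMIs were present in 90 members and 101083 other barcodes, and no KO_PBS barcode had enough.

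Markers of the plasma cell state outside the rule were higher in KO members in 11 of the 18 listed genes with enough UMIs (1.41% of all genes were), and lower in 0, with a median log2 ratio of 1.41 against -0.22 over all genes. Jchain, which joins IgM and IgA into polymers, was at 4642 CPM (4464 to 4825) against 1053, a ratio of 4.41. It had a UMI in 149 members and in 83.9% of other barcodes, with a median of 12 UMIs per member and a maximum of 93. Fkbp11, a folding enzyme of the secretory pathway, had a ratio of 6.75 (185 against 27.4 CPM, in 68 members). Xbp1, the transcription factor that expands the endoplasmic reticulum, was at 802 CPM (729 to 881) against 235, a ratio of 3.41, and was found in 124 members. Sec11c, a subunit of signal peptidase, was 3.72-fold higher, Tent5c, a poly(A) polymerase, 4.03-fold, Creld2 4.50-fold and the surface receptor Slamf7 2.99-fold. None of these markers was used to choose the members.

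Not every plasma cell marker moved. Sdc1 (CD138), the surface proteoglycan used to sort plasma cells and also made by epithelium, was at 400.2 CPM in KO members and 521 in the others, a ratio of 0.768 that was not called. Ell2, an elongation factor of antibody transcription, had a ratio of 1.23 and Cd38 one of 1.10. Tnfrsf13b, Bhlha15, Cd28, Ly6k and Ccr10 had too few UMIs to be called, with 1 UMI of the homing receptor Ccr10 in all 152 members.

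Genes that move new proteins into the endoplasmic reticulum and fold them were higher in KO members in 7 of 32 listed genes (1.41% of all genes were), and lower in 0, with a median log2 ratio of 0.76. Sdf2l1, part of a folding complex with the chaperone Hspa5, was 4.52-fold higher with 62 UMIs. Hsp90b1 (GRP94) was at 1816 CPM (1706 to 1932) against 687, a ratio of 2.64, in 143 members. Spcs3 of signal peptidase (2.41-fold), Manf (2.38-fold), Srprb of the signal recognition particle receptor (2.21-fold), Hyou1 (2.18-fold) and the disulfide isomerase Pdia4 (2.18-fold) were the others. Hspa5 (BiP) itself had a ratio of 1.59 and was not called.

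Degradation of misfolded proteins and the unfolded protein response gave 5 higher genes of 16 (against 1.41% over all genes), and 0 lower, with a median log2 ratio of 0.47. They were Xbp1, Edem2 (2.96-fold), Herpud1 (2.17-fold), Sel1l (2.05-fold) and the ubiquitin ligase Syvn1 (2.05-fold). The sensors Ern1 and Atf6 had ratios of 0.866 and 1.06, and the stress factor Ddit3 one of 0.998. None of these 3 was called. Of 29 genes of glycosylation and Golgi transport, 1 was higher, Mgat1 at 2.21-fold, which acts on N-glycans. With 1 call this list is not set apart from all genes. The list's median log2 ratio was 0.20.

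**Figure D2:**
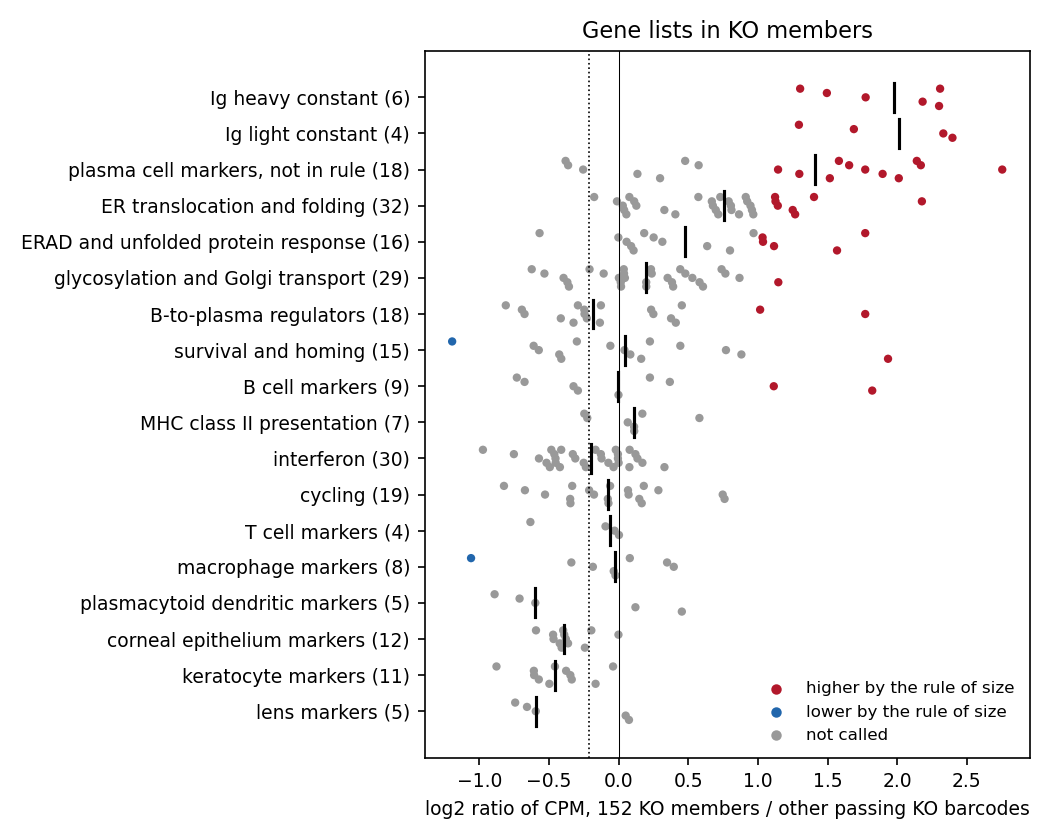
Log2 ratio of CPM between KO members and the other passing KO barcodes for every gene of each list with enough UMIs (their number in brackets). Black bars are list medians, the dotted line is the median of all genes (-0.22), and red and blue points passed the rule of size. Immunoglobulin constant genes and plasma cell markers lie furthest to the right, and lists of other cell types lie around or left of 0.

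Because several of these genes answer to the unfolded protein response, their promoters were searched on both strands for the endoplasmic reticulum stress element (CCAAT, 9 bases of any kind, CCACG), the unfolded protein response element TGACGTG and the octamer ATTTGCAT. The windows ran from 250 bases before to 50 after each start site in RefSeq (build GRCm38.p6). The stress element was in 37 of 27025 genes with a promoter (0.137%), and in 10 of the 5388 of these with enough UMIs in KO (0.186%). It was in 3 of the 41 higher genes that had one (Creld2, Hsp90b1 and Syvn1), in Derl3 among 6 genes of the rule, and also in 5 endoplasmic reticulum genes that were not called (Calr, Canx, Dnajc3, Hspa5 and Pdia6). TGACGTG was in 5 of the 41 (Fkbp11, H13, Isg20, Txndc11 and Txndc5) and in 601 genes of the table (2.22%), or 200 of the 5388 (3.71%). ATTTGCAT was in 2 of the 41 and in 532 genes of the table (1.97%), or 91 of the 5388 (1.69%). A match is a description of letters and not a site in use.

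The 250 bases before the start site are shown for Creld2 (chr15:88819396-88819645, plus strand), Hsp90b1 (chr10:86705445-86705694, minus strand) and Derl3 (chr10:75893148-75893397, plus strand), as the promoters of 2 higher genes and 1 gene of the rule with the stress element in capitals. Each is written 5′ to 3′ along its gene, and a match on the opposite strand reads as the reverse complement.
Creld2: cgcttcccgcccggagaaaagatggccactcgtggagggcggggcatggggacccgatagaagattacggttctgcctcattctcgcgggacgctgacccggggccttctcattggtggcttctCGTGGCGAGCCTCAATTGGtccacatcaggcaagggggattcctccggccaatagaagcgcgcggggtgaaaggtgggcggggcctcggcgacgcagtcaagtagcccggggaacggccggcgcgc
Hsp90b1: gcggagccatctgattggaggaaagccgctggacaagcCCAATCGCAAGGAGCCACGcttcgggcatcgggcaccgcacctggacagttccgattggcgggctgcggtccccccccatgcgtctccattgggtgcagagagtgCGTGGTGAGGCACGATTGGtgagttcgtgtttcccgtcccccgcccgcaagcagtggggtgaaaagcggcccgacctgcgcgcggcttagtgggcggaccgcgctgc
Derl3: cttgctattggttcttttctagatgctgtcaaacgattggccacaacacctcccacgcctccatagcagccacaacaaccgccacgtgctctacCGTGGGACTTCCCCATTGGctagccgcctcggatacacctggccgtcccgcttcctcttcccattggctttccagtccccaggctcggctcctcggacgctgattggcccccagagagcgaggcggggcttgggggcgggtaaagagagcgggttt
The match began at position -126 from the start site in Creld2 and at -156 in Derl3, both on the opposite strand. Hsp90b1 held 2 matches, 1 on each strand, the first at position -212.

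Of 9 B cell markers with enough UMIs, 2 were higher in KO members (1.41% of all genes were) and the median log2 ratio was -0.0016. Those 2 were Cd79b (3.53-fold) and Cd79a (2.16-fold), the signalling chains of the B cell receptor. Ms4a1 (CD20), lost on maturation to plasma cells, had 14 UMIs and a ratio of 1.29 that was not called. Pax5, the B cell identity factor, had 1 UMI over all KO members, while Fcer2a and Blk had 0, all too few to be called either way. A rule of the same form with B cell markers found 184 KO barcodes, and 0 of them were members. Members were only 0.142% of all passing KO barcodes, so 0 of 184 does not set the 2 groups apart.

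Of 18 regulators of the B cell to plasma cell step with enough UMIs, 2 were higher, Xbp1 and Mef2c (2.02-fold), against 1.41% of all genes, and the median log2 ratio was -0.18. Bach2, which holds B cells back from differentiation, had 12 UMIs and a ratio of 0.626, and Ikzf3 (Aiolos) had 12 and 1.30. Neither was called. Among 15 survival and homing genes, Ly6c2, a surface antigen of plasma cells, was 3.82-fold higher and Bcl2 was at 0.437 of the others' level. Centred on the median of all genes, the Bcl2 difference was no longer called.

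Marker RNA of other corneal cells was present in the KO members. Krt12 was in all 152 members, with 9 to 86 UMIs and a median of 31.5. It was at 9919 CPM against 13749 in the others, a ratio of 0.721. All 12 corneal epithelial genes listed had ratios below 1, with log2 values from -0.59 to -0.0018 and 14691 UMIs where 19875 were expected, and none was called. Of keratocyte genes of the stroma 0 of 11 were called, with a median log2 ratio of -0.46. The median over all genes was itself below 0, at -0.22, and with 1.41% of all genes higher and 2.08% lower, 0 calls in lists of this size set neither apart. The part of this common RNA in the other values was not tested.

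Markers of other immune cells were few enough that 0 calls say little about them, since 1.41% of all genes with enough UMIs were higher. T cell markers were called in 0 of 4 genes and plasmacytoid dendritic cell markers in 0 of 5. Tcf4 and Irf8 of the latter had ratios of 0.660 and 1.37. Of 8 macrophage markers 1 was lower, Mrc1 at 0.480 of the others' level, which was not called once ratios were centred. The pan-leukocyte gene Ptprc (CD45) had 74 UMIs and a ratio of 0.925. Class II antigen presentation genes, which fall as B cells become plasma cells, were called in 0 of 7, with Cd74 at 2376 CPM against 2112.

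The antiprotease Slpi, a secreted inhibitor of leukocyte serine proteases made by secretory epithelium, stood beside the antibody genes. It was at 23145 CPM in KO members (22746 to 23550.2) against 3888 in the others, a ratio of 5.95. A KO member had 0 to 688 UMIs of it, with a median of 40.5. Per 10000 UMIs this was 0 to 965, with a median of 122, against a median of 20.3 in the others. Its level moved with that of immunoglobulin. Across the 152 members Spearman's rank correlation between the 2 shares was 0.772, and across the 106873 other barcodes it was 0.736. Barcodes of 1 library share their depth and background, so these are descriptions. Krt12 ran the other way in members, at -0.514.

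**Figure D3:**
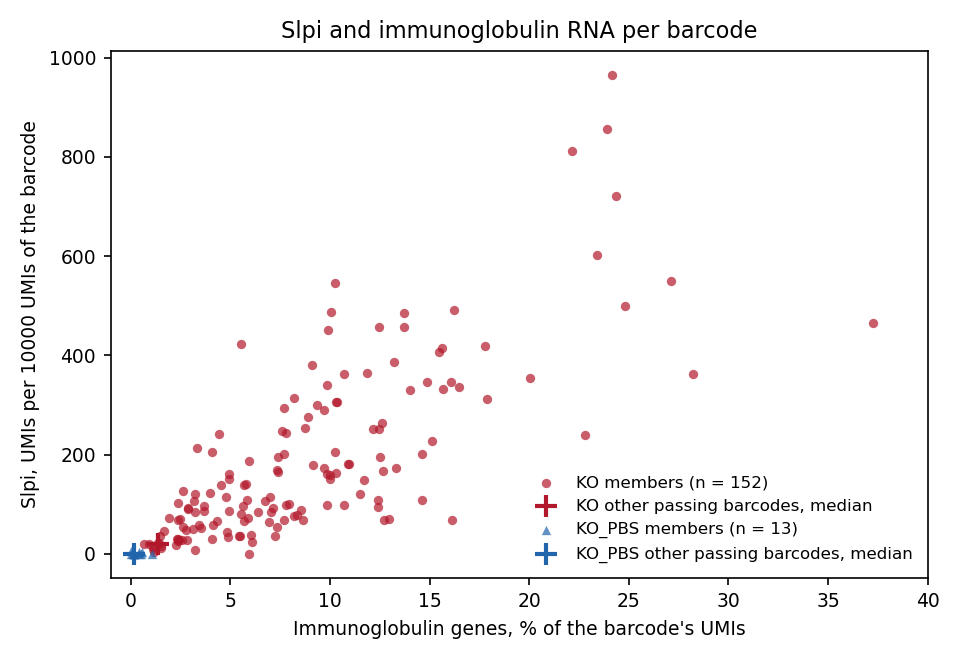
Slpi UMIs per 10000 UMIs against the immunoglobulin percentage of each member's UMIs, in KO (red circles) and KO_PBS (blue triangles), with crosses at the medians of the other passing barcodes. KO members spread upward along both axes from the cross of their library, and KO_PBS barcodes lie near the origin.

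Immunoglobulin-rich barcodes were common in KO outside the members. A share at or above the members' median of 7.64% was found in 3509 other passing barcodes (3.28%). They had Slpi at 20812 CPM and Jchain at 4254 CPM, close to the members' 23145 and 4642. Xbp1 stood at 577 CPM and Sec11c at 316 in them, between the members and the rest. Mzb1 was at 514 CPM, and 368 of these barcodes had 3 or more of the 7 genes, but 527 (15.0%) had 0 UMIs of any of them. Slpi had 12780 UMIs in the members, 266190 in these barcodes and 1102691 in the remaining passing barcodes. Igkc had 34121 UMIs in the members, of 4358215 in the library. Most Igkc and Slpi RNA in this library thus lay in barcodes that the rule did not choose.

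**Figure D4:**
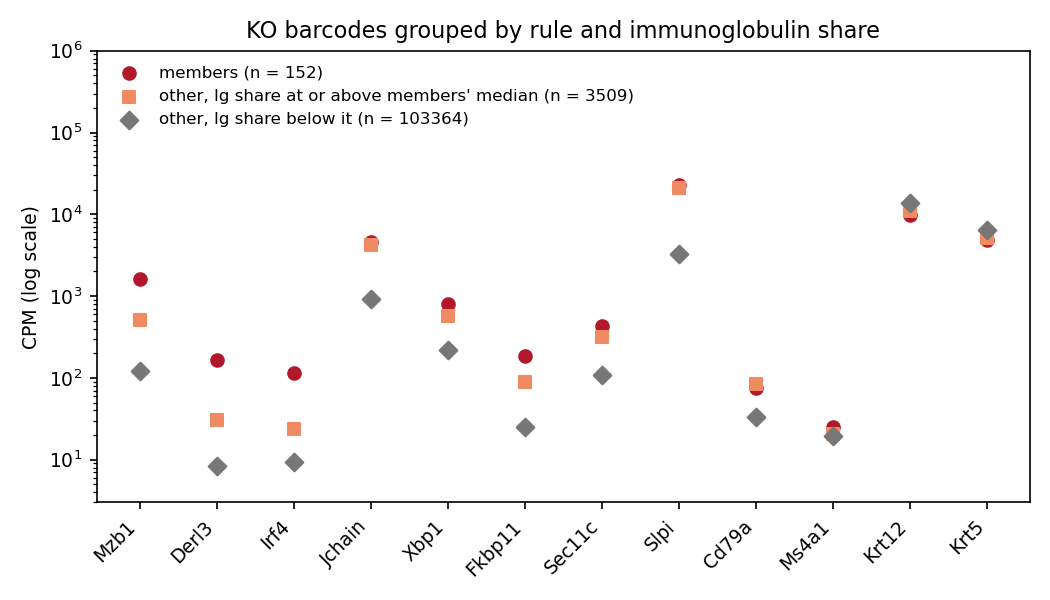
CPM (log scale) of 12 genes summed over the 152 KO members, 3509 other KO barcodes with an immunoglobulin share at or above the members' median and the remaining 103364. Jchain, Slpi and Cd79a lie close together in members and immunoglobulin-rich barcodes, while Mzb1, Derl3 and Irf4, which chose the members, differ. Krt12 and Krt5 lie within 2-fold in all 3 sets.

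The members' other genes were read again in the 76 KO members below the median immunoglobulin share. This split itself lowers their immunoglobulin ratios, so these are given as a description. Fkbp11 was 4.80-fold higher there, Xbp1 2.44-fold, Jchain 2.44-fold and Slpi 2.23-fold, and each was still called, as were Hsp90b1 (2.25-fold) and Manf (2.14-fold). Ighm (5.48-fold), Iglc2 (2.85-fold) and Ighg2c (2.57-fold) were called too. Igkc (2.00-fold), Ighg1 (1.86-fold), Ighg2b (1.25-fold) and Igha (1.54-fold) were not. Of the secretory and degradation genes described above, Spcs3 (1.75-fold), Herpud1 (1.63-fold), Edem2 (1.52-fold) and Sel1l (1.52-fold) also lost their call, and so did Ly6c2 (1.74-fold). Ssr4, a subunit of the translocon-associated complex, was at 1.86-fold and lost its call too. Slamf7, Cd79a, Cd79b, Ighg3 and Iglc3 had too few UMIs there. With Mzb1 taken out of the rule, 175 KO barcodes met it, 42 of them members. Mzb1 was 3.48-fold higher in those 175, Igkc 2.83-fold, Jchain 2.57-fold and Slpi 3.15-fold. Xbp1 (2.02-fold), Fkbp11 (3.43-fold) and Sec11c (2.64-fold) were still called. Many others were not, namely Cd79a, Cd79b, Slamf7, Ssr4, Mef2c, Iglc1 and Ighm (1.85-fold), and of the folding, degradation and glycosylation genes Hsp90b1 (1.59-fold), Manf, Spcs3, Edem2, Herpud1, Sel1l and Mgat1. Genes such as Tent5c, Pdia4, Hyou1, Srprb and Syvn1 were not followed in these sets.

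The 13 KO_PBS barcodes were read too thinly to bear out the plasma cell label and are called here barcodes that met the rule. They had 1332 to 5414 UMIs, with a median of 2556, and 3 to 5 UMIs of the 7 genes. Prdm1 was in 10 of them, Mzb1 in 8, Pou2af1 in 8, Irf4 in 7, Eaf2 in 5, Derl3 in 2 and Tnfrsf17 in 0. Each gene was read by at most 2 UMIs per barcode. Outside the rule, the 23 listed plasma cell markers together had 64 UMIs where 39.9 were expected from the other barcodes, a ratio of 1.60, and none had enough UMIs to be called. Other immune lists had ratios above 1 too, 2.80 for T cell markers (23 UMIs where 8.22 were expected), 2.04 for B cell markers (34 where 16.7 were) and 1.48 for macrophage markers (80 where 54.2 were). The pan-leukocyte gene Ptprc was at 369.9 CPM (202 to 621) against 98.8, from 14 UMIs. Jchain had 7 UMIs in 5 barcodes, at 185 CPM (74.4 to 381) against 66.6, and Ssr4 6 UMIs. Xbp1 had 2 UMIs where 2.51 were expected, and Fkbp11, Tent5c, Tnfrsf13b, Bhlha15 and Ccr10 had 0. For Fkbp11 0.319 UMIs were expected. Prdm1 and Irf4 also serve T cells and myeloid cells, where no antibody is made. Prdm1 and Eaf2 were also read in WT, with 3987 and 2049 UMIs in the library, against 54 of Irf4 and 16 of Mzb1. In KO_PBS, Prdm1 gave 6221 of the library's 12291 UMIs of the 7 genes and was in 5.12% of the other passing barcodes. Which cells carried this RNA was not tested.

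Immunoglobulin made up 0% to 1.09% of the UMIs of a KO_PBS barcode that met the rule, with a median of 0.174%, and the other passing barcodes had a median of 0.170%. Of the 13, 5 lay above the others' 95th percentile of 0.422%. Igkc was at 1902 CPM (1488 to 2396) against 973, a ratio of 1.95 that was just short of a call. Centred on the median of all genes, it was called higher, at 1.08 on the log2 scale. It led in 2 barcodes, with up to 18 UMIs. Ighg1 had 17 UMIs in 7 barcodes, up to 8 in 1, and a ratio of 1.11. No heavy constant or variable gene led in any.

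The KO_PBS barcodes that met the rule were higher than the others in 22 of 478 genes with enough UMIs (4.6%) and lower in 11 (2.3%), or 27 and 6 when centred. The number of higher genes is partly set by the minimum of UMIs. Genes with few expected UMIs could reach it only with a high count in these barcodes. With a minimum of 50 UMIs, 1 of 185 genes was higher and 2 were lower. Dock2, a Rac activator of leukocyte migration, was at 449 CPM (262 to 719) against 82.4, a ratio of 5.45. It had 17 UMIs in 8 barcodes, where 3.12 were expected. Arhgap15, a Rac inhibitor of leukocytes, was 5.42-fold higher in 9 barcodes. The Src family kinase Lyn was 4.63-fold higher in 6. Dock2, Arhgap15 and Lyn reached the minimum only through these barcodes, which alone set a ratio above 2. Of the 33 genes of endoplasmic reticulum translocation and folding in the file, 4 had enough UMIs and 0 were called.

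Other higher genes of the KO_PBS barcodes included Inpp4b (3.83-fold), Atxn1 (3.16-fold), Mbnl1 (3.09-fold), the membrane protease Mmp14 (3.07-fold), Maml2 (2.89-fold) and the class II gene H2-Ab1 (2.16-fold). The chemokine Ccl5 was 2.76-fold higher in 5 barcodes, with 9 of its 16 UMIs in 1 of them. Foxn3, Rsrp1 and Arid5b were between 2.53-fold and 2.75-fold higher. Inpp4b, Atxn1, Mmp14, Maml2, Ccl5, Foxn3 and Arid5b reached the minimum of UMIs only through these barcodes, which alone set a ratio above 2. Lower were Atp6v1e1 (0.325 of the others' level), Ndufb7, Cstb and Npy. Ikzf3 and Bank1 had 9 UMIs each in 5 barcodes, Bach2 8 and Siglech, a marker of plasmacytoid dendritic cells, 3, all too few to call. A B cell rule of the same form found 368 KO_PBS barcodes, and 1 of them was among the 13. The 13 were 0.0116% of all passing KO_PBS barcodes, and nothing is read from this single barcode.

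Set side by side, the KO_PBS barcodes that met the rule held less antibody and Slpi RNA than the KO members and more RNA of lens and pigment cells. They were higher in 313 of 4245 genes with at least 20 UMIs over both sums (7.37%) and lower in 109 (2.57%). The median log2 ratio was 0.75, and centred on it 103 were higher and 353 lower. Counts below 3 were set to 3, which lifts the ratio of many genes because the KO_PBS sum is small. Cd79a, at 0 CPM in KO_PBS and 76.3 in KO, thus had a log2 ratio of 0.063. The median and the counts centred on it are partly set by this floor. Of the 313 higher genes 108 (34.5%), and of the 109 lower 65 (59.6%), moved at least 2-fold the same way between the other barcodes of both libraries. The same share over all genes was not counted, so neither value can be called high or low. The 6 named higher genes were the lens crystallins Cryge, Cryba2, Crybb2 and Crygb and the pigment cell genes Tyrp1 and Trpm1. Trpm1 had 16 UMIs in KO_PBS and 4 in KO, and like Cryge it reached the minimum mostly through the KO_PBS barcodes where it was high. Cryge had 17 UMIs in KO_PBS and 3 in KO, or 452 CPM (263 to 723) against 5.45 (1.12 to 15.9), and differed by 6.81 on the log2 scale between the other barcodes. Tyrp1, with 25 and 4 UMIs, differed by 6.51 in the barcodes that met the rule and 5.51 in the others.

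Among lower genes, Slpi, with 4 UMIs in KO_PBS, differed by -7.77 on the log2 scale in barcodes that met the rule and -7.75 in the others. Ighg1 differed by -6.14 in barcodes that met the rule and -3.99 in the others, Igkc by -5.02 and -3.65 and Jchain by -4.65 and -3.98. Hsp90b1 differed by -2.10 and -1.15. Ighg2b had 1 UMI in the KO_PBS barcodes, or 26.6 CPM (0.673 to 148) against 4219 (4049 to 4394) in KO. Xbp1 had 2, or 53.1 CPM (6.44 to 192) against 805 (732 to 883). These 2 differed by -5.14 and -1.82 between the other barcodes. AY036118, which overlaps the ribosomal RNA-like gene Gm42418, was at -5.81 and -5.25. No gene was called higher against its own library in both sets. Of the genes higher in KO members, 5 had enough UMIs in KO_PBS to compare, Igkc, Chchd10, Hsp90b1, Igha and Ighg1, and 0 of them were called there. Over all genes with enough UMIs in KO_PBS, 22 of 478 (4.6%) were higher, so 0 of 5 says little. Centred on the median, Igkc was called higher in both libraries.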

How the data were processed

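The deposited values are raw UMI counts, whole numbers for each gene in each barcode, of 3 libraries of nuclei from frozen whole corneas. They were made with Cell Ranger 7.0.1 on mm10, per the submitters' processing notes. How intronic reads were treated and which barcodes were kept is not given in the sources used here. Samples were grouped by genotype and treatment labels. The KO_PBS file lists 31053 genes and the others 32285, so KO_PBS was compared with KO on common Ensembl IDs.

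Members were found by the rule with each library's own gene list. UMIs were summed over members and over the other passing barcodes and given as CPM. Ratios used counts of at least 3, a floor applied to each sum. No p-value was computed, and no doublet caller was run. The members, gene lists and thresholds were chosen with earlier results of these data known. The genes named were all 7 of the rule, all immunoglobulin constant genes, the 12 highest and 5 lowest called genes per library (6 each way between libraries) with at least 10 UMIs in members (expected, for lower genes), up to 4 called genes per list and the most frequent leading variable genes. Genes of the lists named outside this rule, such as Ern1, Tent5c, Srprb, Ell2, Tcf4, Ptprc and Bach2, were chosen after their values were seen. Some genes that the rule names are not reported here. Of the 7 genes of the rule, 6 had enough UMIs in KO. In GENCODE M21 many named genes share exons with other genes. They do so on the same strand in Hsp90b1, Manf, Cd74, Slpi, Ell2, Maml2, Top2a, Iglc2 and Tnfsf13, and on the opposite strand in Hsp90b1, Manf, Dock2, Glipr1, Spcs3, Slamf7, Lyn, Arhgap15, Atxn1, Atp6v1e1, Exosc5, Tbck, Sik2, Krt12, Bcl2, Bach2, Pax5, Ell2, Iglc3, Tnfsf13 and Trpm1, and those values can be uncertain.

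Alternatives changed the gene, mitochondrial, marker and share limits, left out each rule gene or the deepest 5% of barcodes, thinned depth, and changed the minimum of UMIs, the fold and the scaling. Exchanged thresholds, members below the median immunoglobulin share and the KO gene comparison without Mzb1 were added after the data were seen. The gene comparison was tested on simulated counts drawn from the summed KO profile. These held no differences between barcodes, so the simulation says nothing about sums that rest on few barcodes. Tools were scipy 1.17.1 and numpy 2.4.6 under python 3.11.15, with pandas 2.3.3 for tables and matplotlib 3.10.9 for figures.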

Additional observations from a re-analysis of the deposited data

Results flagged for a closer look

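Dock2, the Rac activator of leukocytes, was called in opposite directions in the members of the 2 libraries. In KO members it was at 38.0 CPM against 76.4 in the other passing barcodes, a log2 ratio of -1.01 from 21 UMIs in 19 members. In the KO_PBS barcodes it was at 449 CPM against 82.4, a log2 ratio of 2.45 from 17 UMIs in 8 barcodes. With 3.12 UMIs expected there, Dock2 could reach the minimum of UMIs only with a count that set a ratio above 2. A lower call was thus not possible for Dock2 in KO_PBS, and the opposite direction is partly set by that minimum. The difference between the libraries was not tested, since each had 1 library. The KO value lay close to the 2-fold limit and was not called when ratios were centred (-0.79) or scaled without immunoglobulin genes and Jchain (-0.87), nor with Mzb1 out of the rule (-0.36). In KO members below the median immunoglobulin share it was called lower (-1.22).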

How the results depend on the processing

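No paired analysis was possible because each group had 1 library. The share of KO members was 0.0439% with at least 4 of the 7 genes, 0.00187% (2 barcodes) at 16 times the library share, 0.113% without Pou2af1 and without Eaf2, 0.116% without Derl3, 0.0889% after thinning and 1.84% at the KO_PBS threshold. The KO_PBS share was 0.0222% with 1000 genes, 0.000894% with 4 genes and at the KO threshold, 0.00536% without Mzb1, 0.00447% without Prdm1 and 0 after thinning. Shares that stayed inside the main interval are not listed in full. Among these were 0.00626% in KO_PBS without Pou2af1 and without Irf4. Genes higher and lower in KO members, 96 and 141, became 0 and 1 at 16 times the share, 250 and 274 with no minimum of UMIs, 56 and 20 with a minimum of 50, 49 and 10 at 3-fold, 145 and 45 centred on the median, 38 and 21 in members below the median immunoglobulin share and 53 and 46 without Mzb1 in the rule. Scaled without immunoglobulin genes and Jchain, 65 were lower. In KO_PBS the 22 and 11 became 2 and 3 with 4 genes, at 16 times the share and without the deepest 5% of barcodes, 419 and 34 with no minimum, 1 and 2 with a minimum of 50 and 7 and 1 at 3-fold. There 10 were higher with at most 1% mitochondrial UMIs, and 6 lower when centred and 28 against the 25% of barcodes with the fewest UMIs. Between the members of both libraries, 313 and 109 became 32 and 32 with 4 genes, 2 and 7 at 16 times the share, 128 and 61 without the deepest barcodes and 103 and 353 centred. With no minimum 562 were higher and with a minimum of 50 UMIs 136, and at 3-fold 62 were lower. A heavy constant gene led in 87.2% of members with 4 genes, 0% of the 2 at 16 times the share and 68.4% at an excess of 20 UMIs. For light variable genes the last 2 gave 0% and 5.26%. Ighg1 reversed in the 2 barcodes at 16 times the share (-0.74 on the log2 scale), and Iglc1 in members below the median immunoglobulin share (-0.058), a split that itself lowers immunoglobulin ratios. Stricter limits left fewer barcodes or genes, and the cause of the other changes was not tested. Depth limits single members, since many plasma cell markers had a median of 0 to 2 UMIs per barcode.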

Other observations

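Cell cycle and interferon-response genes gave no call in the KO members. Over all genes 1.41% were higher and 2.08% lower, so 0 calls in lists of this size set neither apart. Of 19 cell cycle genes 0 were called, with Mki67 at 58.0 CPM against 55.2 and Top2a at 116 against 134. Of 30 interferon-response genes 0 were called, and their median log2 ratio was -0.20. Ligands that support plasma cells in tissue were read thinly in the members, with 0 UMIs of Tnfsf13b (BAFF), 8 of Tnfsf13 (APRIL) and 1 of Il6. Cxcl12, a retention chemokine, had a ratio of 1.21 and was not called.

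The lowest genes of the KO members were Exosc5 (4 UMIs, 0.219 of the others' level), Tbck (0.259), Dlst (0.286), Zhx2 (0.299) and Sik2 (0.309). With Mzb1 left out of the rule, none of these 5 was called. Glipr1 (4.31-fold, 25 UMIs where 5.80 were expected) and the predicted gene Gm30211 (4.29-fold, 239 UMIs) were among the highest. With so few expected UMIs, Glipr1 could be counted only through a high value in members. The log2 ratio of Gm30211 was 0.82 in members below the median immunoglobulin share, and it was not called there.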
